A study of Schizosaccharomyces pombe with 24 samples.

Results

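The genes described here are 120 of the 6877 genes counted in fission yeast (Schizosaccharomyces pombe) that rose soon after nitrogen was withdrawn and were low again 1 day later. They were chosen from the wild-type libraries at 0, 1 and 24 h alone. A gene had to reach a mean of at least 20 CPM at 1 h, where CPM is the count scaled to the same total of gene reads in each library, and at least 3 times its 0 h mean. These conditions were met by 477 genes, of which 56 were left out by identifier, most of them by the identifiers of non-coding RNAs. From the other 421, the 120 with the lowest ratio of the 24 h mean to the 1 h mean were taken. The last 3 genes inside were say1, fnx1 and SPAC4F10.17, with ratios of 0.371, 0.375 and 0.376. The first 3 outside were SPAC11D3.18c, bcp1 and rbk1, with 0.376, 0.384 and 0.387. The working name of the set says that its genes peak at 1 h, and this held in part. In wild type, by this CPM, the mean was highest at 1 h for 70 genes, at 2 h for 47 and at 4 h for 3. These counts depend on the scaling. After the TMM scaling explained below, 33 genes stood above their 1 h mean at 2 h in wild type and 13 at 4 h. The 120 are therefore called transient starvation genes here.

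RNA was sequenced from 2 strains, each at 0, 1, 2, 4, 10 and 24 h with 2 replicates, which gives 12 groups and 24 libraries. The wild type is labelled wt (975 h+), and the other strain carries the same 975 h+ background with clr4D::NatMX6, a deletion of the gene for Clr4, the histone H3 lysine 9 methyltransferase that builds heterochromatin. Both strains grew at 32 °C in minimal medium with adenine, histidine, leucine, lysine and uracil at 225 µg/ml to an optical density of about 1, were washed in nitrogen-free medium and were kept in it at the same temperature. The 0 h libraries are the controls before starvation, and the series text calls the replicates biological. No culture transferred to medium that still held nitrogen was analysed here, so nitrogen loss, washing and time cannot be told apart.

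Each library held 637723 to 4427020 reads on genes, with a median of 1436782, and the 2 replicates of a group correlated at a Pearson r of 0.9595 to 0.9905 across genes. The pair that agreed least was wt at 4 h. The clr4 feature carried reads in every library, at 337 ± 84.7 CPM (SD, n = 2) in the clr4D-labelled cells at 0 h and 89.3 and 172 CPM in the wt libraries, and at 129 ± 0.774 against 117 ± 12.6 at 10 h. The counts give no position within the feature, so the strain is called clr4D-labelled below. Fixed markers of M cells, the mating type opposite to the h+ label, summed to 8502 to 10100 CPM in the clr4D-labelled libraries at 10 h and to 189 to 212 in wt. Fixed spore markers summed to 7333 to 15490 CPM against 175 to 219 there. At 0 h the M-cell sums were 174 to 186 CPM against 132 to 146, and the spore sums 136 to 146 against 150 to 157. In RNA from a whole culture, fewer cells of a kind and less RNA per cell cannot be told apart.

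When fission yeast loses its nitrogen source, cells first slow growth and break down proteins, purines and pyrimidines to release nitrogen, and later stop in G1, mate or become quiescent. Salvage and breakdown enzymes recover bases, ribose and ammonium from nucleosides. The same yeast also has a core stress programme, switched on through the MAP kinase Sty1 and the factor Atf1, that makes trehalose, glycerol and antioxidant enzymes. Many genes of both kinds are quickly switched on and are switched down again as cells adapt.

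Because the wt libraries at 0, 1 and 24 h chose the genes, changes that use them are given as levels with no test. Tests were made of comparisons that leave those libraries out. These were within the clr4D-labelled strain, between 2 h and 10 h in each strain, and between the strains at 2, 4 and 10 h. Each was tested with a two-sided edgeR quasi-likelihood test fitted over all 5664 genes that passed a filter on low counts. The spread behind each test was estimated from all 24 libraries, those that chose the genes included. A gene is called changed where the p adjusted over all those genes (Benjamini-Hochberg) lies under 0.05. All 120 genes passed the filter, as their chosen level at 1 h made certain. Levels are CPM after TMM scaling, which sets the libraries level by the trimmed mean of their log ratios, and given as mean ± SD of 2 libraries.

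The 120 genes together took 13.92% and 13.94% of all gene reads in the 2 wt libraries at 1 h, from a share of 1.11% and 1.14% at 0 h. In the clr4D-labelled strain, whose libraries did not choose them, the share went from 1.23% and 1.09% at 0 h to 13.19% and 12% at 1 h. All 120 genes were called higher at 1 h than at 0 h in that strain, where 26.4% of all tested genes were called higher, 25.8% lower and 52.2% either way. Their median log2 change was 3.19, beside 0.0 over all tested genes, and for each of the 120 both 1 h libraries lay above both 0 h libraries, as they did for 37.7% of all tested genes. The smallest rise was that of hhf1, one of the histone H4 genes, from 415 ± 54 to 566 ± 68.3 CPM (log2 change 0.46 ± 0.18 SE, adjusted p = 0.0352). That call was lost without clr4D 0 h replicate 1 (0.27), clr4D 1 h replicate 1 (0.52) or clr4D 1 h replicate 2 (0.28), and with the compared libraries fitted alone (0.47).

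**Figure D1:**
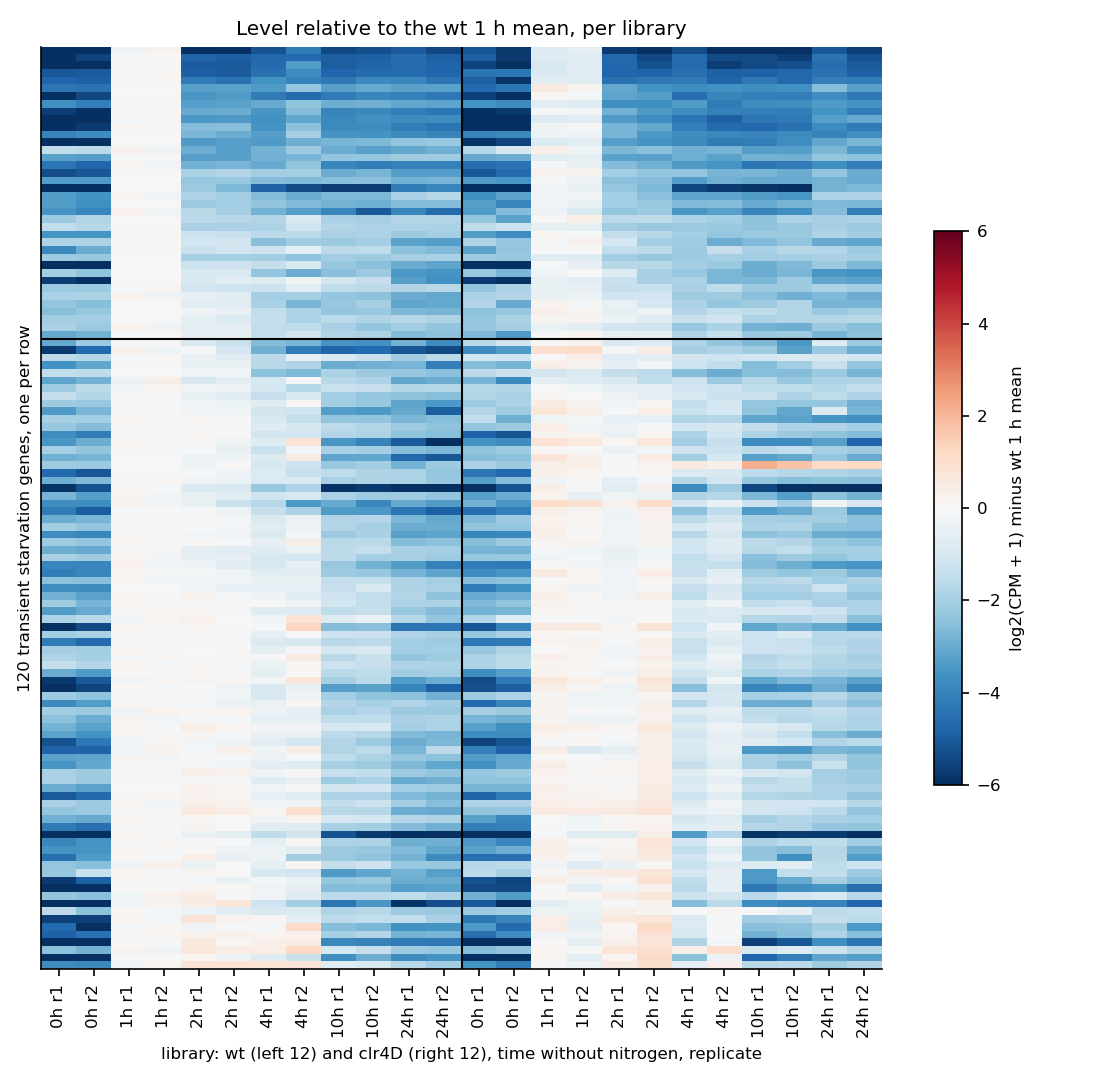
Level of each of the 120 genes (rows) in each of the 24 libraries (columns; wt left, clr4D-labelled right), as log2(CPM + 1) minus the gene's mean in the 2 wt libraries at 1 h, with colours limited at -6 and 6. The upper block holds the 38 genes called lower at 2 h than at 1 h in the clr4D-labelled strain, and rows are ordered by the clr4D-labelled 2 h level as a percentage of 1 h within each block; the pale columns at 1 h stand between darker ones at 0 h and 24 h in both strains.

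The set fell in a similar order in both strains. As a percentage of each gene's own 1 h mean, the median level in wt was 85.8% at 2 h, 53.2% at 4 h, 23.8% at 10 h and 14.7% at 24 h. In the clr4D-labelled strain it was 86.9%, 39.7%, 20.5% and 20.8% at those times, where the median over all tested genes stayed between 99.3% and 101.2%. The low wt value at 24 h was fixed by the choice of genes. By 24 h, 119 of the 120 genes were called lower than at 1 h in the clr4D-labelled strain, against 22.9% of all tested genes called lower and 41% either way. The 1 gene called higher, against 18.1% of all tested genes, was the gluconate transporter gene ght3. Their median log2 change was -2.27, beside -0.01 over all genes.

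The 2 wt libraries at 10 h and the 2 at 2 h had no part in the choice, and between them 99 of the 120 genes were called lower, against 13.7% of all tested genes. The median log2 change was -1.60, beside 0.0 over all genes. The clr4D-labelled strain gave 100 genes called lower, against 15.8% of all tested genes, with a median of -1.69. Called higher were 2 genes in wt, urh1 and the carbohydrate kinase gene SPBC1861.05, against 13.4% of all tested genes, and 1 in the clr4D-labelled strain, ght3, against 13.5%. Of the 120, 95 were called lower in both strains, against 9.29% of all tested genes, 4 by the wt call alone, 5 by the clr4D-labelled call alone and 16 in neither. Across the 120 genes the changes in both strains had a Pearson r of 0.83 and a Spearman rho of 0.85, beside a Pearson r of 0.51 over all tested genes. This describes genes measured in the same 8 libraries, which are not independent replicates.

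The genes fell in 2 phases. In the clr4D-labelled strain 38 of the 120 were called lower at 2 h than at 1 h, against 2.63% of all tested genes, and 3.71% either way. Against 1.08% of all genes, 1 was called higher, SPAC13C5.04, annotated as an amidotransferase. The 38 stood at a median of 22.5% of their 1 h level at 2 h in that strain, and at 23.9% in wt. The 81 genes with no call stood at 96.0% and 94.7% then. Between 2 h and 10 h, in the wt libraries, 78 of those 81 were called lower, with a median 10 h level of 27.6% of the 2 h level. For the 38 early genes, 20 were called lower and 2 higher in the same comparison, with a median of 64.6%. The split was made from the clr4D-labelled calls after the values were seen, so it is a description.

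The genes that fell first were those for pyrimidine salvage. The 7 members of this kind were grouped by hand after their values were seen. They include urg1 and urg3, whose annotated products do not name pyrimidine salvage. All 7 were called higher at 1 h in the clr4D-labelled strain, as were all 120 genes and 26.4% of all tested genes. All 7 were also called lower at 2 h than at 1 h there, against 2.63% of all tested genes. The median log2 change of the 7 from 1 h to 2 h in that strain was -4.0. Their median level at 2 h was 3.4% of the 1 h level in wt and 6.3% in the clr4D-labelled strain. The genes urg2, urg3 and urg1 stand next to each other in the reference annotation. Uracil is the known inducer of these urg genes.

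The gene urg1, annotated as a GTP cyclohydrolase II, had the highest CPM of the 120 in wt at 1 h. Its wt libraries held 113 and 169 CPM at 0 h, 14662 and 16217 at 1 h, 481 and 468 at 2 h, 611 and 1531 at 4 h, 498 and 553 at 10 h, and 629 and 545 at 24 h. The clr4D-labelled libraries held 326 and 255, 7947 and 9896, 582 and 407, 607 and 306, 363 and 401, and 655 and 466 CPM at those times. The 1 h libraries stood far above the rest in both strains. Every later wt library stayed above both 0 h libraries, and in the clr4D-labelled strain the second 4 h library lay between them. The fall from 1 h to 2 h in that strain was -4.18 ± 0.38 (SE) on the log2 scale (adjusted p = 4.86e-08), and from 2 h to 10 h the gene was called in neither strain.

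The gene urg2, in the same run of neighbours and annotated as a uracil phosphoribosyltransferase, which attaches uracil to a ribose phosphate, fell further. It went from 8336 ± 1554 CPM at 1 h to 121 ± 2.78 at 2 h in wt, and from 5091 ± 467 to 136 ± 27.2 in the clr4D-labelled strain (log2 change -5.24 ± 0.42, adjusted p = 3.58e-08). No other gene of the set had a larger fall in that hour in that strain. The next gene in the run, urg3, whose product is not described, went from 4168 ± 253 to 136 ± 5.53 CPM in wt and from 2411 ± 242 to 151 ± 2.72 in the clr4D-labelled strain (-4.00 ± 0.22). Another uracil phosphoribosyltransferase gene, uck2, went from 1442 ± 28.7 to 48.8 ± 3.02 CPM in wt and from 861 (libraries of 852 and 869) to 43.6 ± 14.9 in the clr4D-labelled strain (-4.35 ± 0.26). The wt and clr4D-labelled libraries of uck2 do overlap at 2 h. They do not overlap at 1 h, but the wt libraries of that time chose the gene, so this was not tested.

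The other 3 act on nucleosides and nucleotides. The cytidine deaminase gene cdd1 went from 316 ± 32 to 14.3 ± 1.82 CPM between 1 h and 2 h in wt and from 188 ± 0.2 to 14.1 ± 1.53 in the clr4D-labelled strain. The pyrimidine 5'-nucleotidase gene SPAC24B11.05, whose product removes phosphate from pyrimidine nucleotides, went from 3435 ± 16.2 to 323 ± 19.4 and from 3474 ± 378 to 367 ± 26.5. The uridine ribohydrolase gene urh1, whose enzyme splits uridine into uracil and ribose, had libraries of 1982 and 2027 CPM at 1 h in wt, 191 and 207 at 2 h, 291 and 308 at 10 h and 382 and 415 at 24 h. It rose again late in wt: from 2 h to 10 h it was called higher (0.59 ± 0.18, adjusted p = 0.0179), which ended when either wt library of 2 h or of 10 h was left out (0.54 to 0.65). In the clr4D-labelled strain it stood at 203 and 169 CPM at 2 h and 112 and 153 at 10 h, and was not called (-0.49 ± 0.19, adjusted p = 0.0581).

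The 8 purine genes fell almost as early. All 8 were called lower at 2 h than at 1 h in the clr4D-labelled strain, against 2.63% of all tested genes. The median log2 change of the 8 was -2.15. Their median level at 2 h was 21.1% of the 1 h level in wt and 23.8% in the clr4D-labelled strain. The uricase gene uro1, whose enzyme oxidises uric acid, went from 81.4 ± 10.5 to 4799.9 ± 605 CPM in wt and then stood at 797 ± 25 at 2 h, 347 ± 20.7 at 10 h and 249 ± 26.3 at 24 h. The clr4D-labelled strain showed a rise from 67.6 ± 6.1 to 4374 ± 323 (6.04 ± 0.33, adjusted p = 2.64e-13) and a fall to 627 ± 88 at 2 h (-2.80 ± 0.27, adjusted p = 3.58e-08).

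Further along the same breakdown route, the allantoicase gene dal2 went from 2616 ± 67.8 to 326 ± 8.83 CPM between 1 h and 2 h in wt and from 2308 ± 136 to 309.6 ± 84.8 in the clr4D-labelled strain. The ureidoglycolate hydrolase gene dal1 went from 92.8 ± 4.86 to 38.6 ± 3.02 and from 92.6 ± 0.31 to 31.4 ± 1.53. The purine nucleoside phosphorylase gene SPAC1805.16c, whose product frees bases from purine nucleosides, went from 1463 ± 32.9 to 155 ± 1.02 and from 1931 ± 339 to 147 ± 38.5. Smaller falls were those of the purine transporter gene SPAC29B12.14c and the nucleoside hydrolase gene SPBC800.11, to 188 ± 6.7 from 479 ± 43.9 and to 599 ± 86.5 from 1013 ± 40.4 CPM in wt. The annotated product of SPBC800.11 prefers inosine and uridine, a purine and a pyrimidine nucleoside. Its place among the 8 purine genes was chosen by hand. The call of SPBC800.11 from 1 h to 2 h in the clr4D-labelled strain (-1.06 ± 0.27, adjusted p = 0.0309) was lost without clr4D 1 h replicate 1 (-0.91), clr4D 1 h replicate 2 (-1.17) or clr4D 2 h replicate 2 (-0.78).

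Genes for making purine nucleotides were among the 8. The IMP dehydrogenase gene gua1, which commits purines to guanine nucleotides, was already at 1227 ± 91.4 CPM at 0 h in wt, reached 3646 ± 915 at 1 h and stood at 408 ± 57.7 at 2 h. From 2 h on, all its libraries lay below those of 0 h in both strains: the clr4D-labelled libraries held 1091 and 1781 CPM at 0 h and 556 and 622 at 2 h. The gene SPCC1620.06c, for the enzyme that makes phosphoribosyl pyrophosphate, stood at 364 ± 39.9 CPM at 0 h, 1091 ± 45.1 at 1 h and 279 ± 0.83 at 2 h in wt.

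Among other early genes, SPAC1039.02, annotated as a phosphoprotein phosphatase, came next to urg1 in wt CPM at 1 h. Its libraries went from 117 and 145 CPM at 0 h to 11833 and 13204 at 1 h and 1141 and 1184 at 2 h in wt, and from 164 and 146 to 7225 and 8057 and then 1178 and 947 in the clr4D-labelled strain. The fall from 1 h to 2 h there was -2.85 ± 0.24 (adjusted p = 4.43e-09). The aldose reductase gene yak3 went from 4917 ± 823 to 700.3 ± 11.7 CPM in wt and from 4119 ± 601 to 733 ± 98.7 in the clr4D-labelled strain (-2.49 ± 0.22). A smaller fall was that of the vacuolar amino acid transporter gene fnx1, known for its part in entry into quiescence under nitrogen starvation, from 448 ± 61.4 to 194 ± 7.7 and from 324 ± 17.3 to 173 ± 2.79 (-0.90 ± 0.17).

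**Figure D2:**
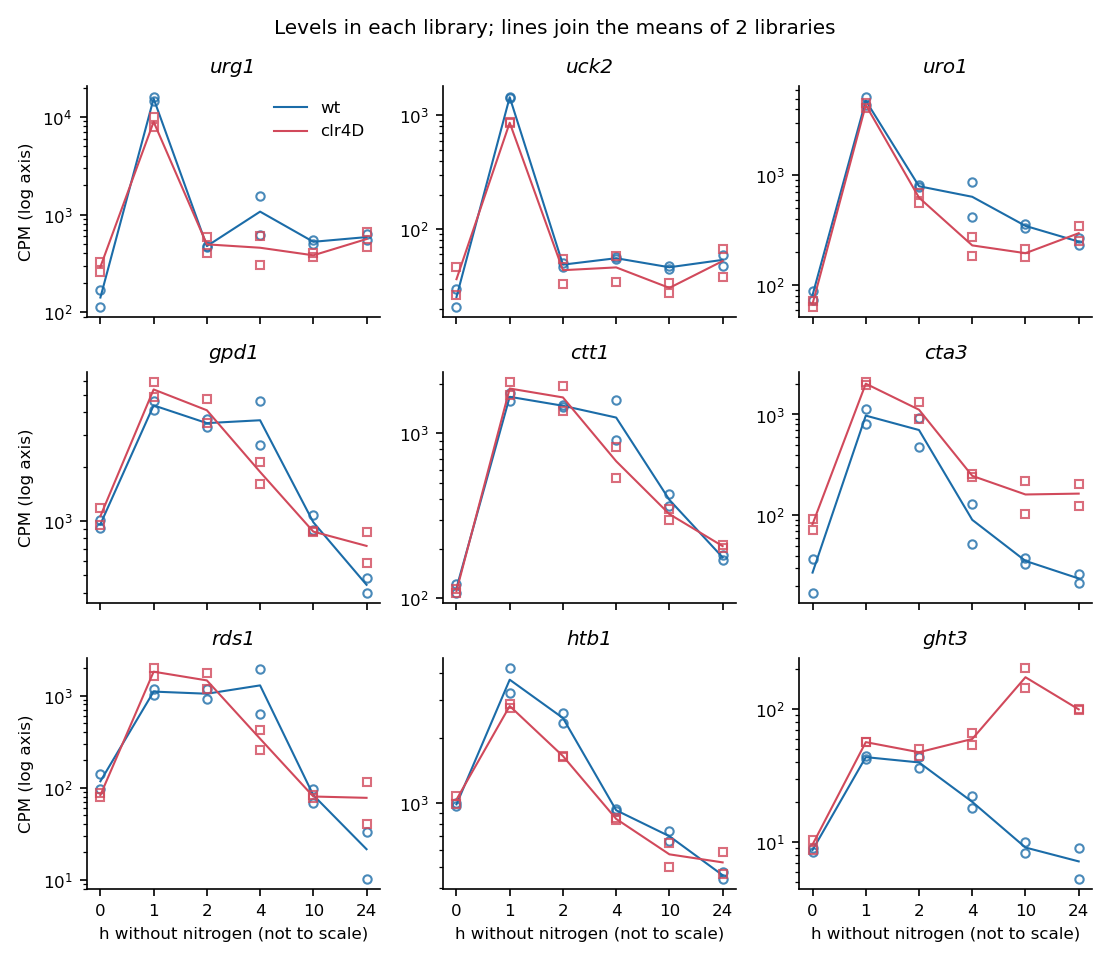
CPM (log axis) of 9 genes in each library against time without nitrogen (categories, not to scale); circles are wt libraries, squares clr4D-labelled libraries, and lines join the means of 2 libraries. The pyrimidine genes urg1 and uck2 fall between 1 h and 2 h, the stress genes gpd1, ctt1, cta3 and rds1 fall later, and ght3 falls in wt to 9.09 CPM at 10 h while it stands at 174 in the clr4D-labelled strain.

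The stress genes held their level for longer. The 16 members for trehalose, glycerol and stress protection were again grouped by hand. All 16 were called higher at 1 h in the clr4D-labelled strain, as were all 120 genes and 26.4% of all tested genes. The edgeR test called 0 of the 16 lower at 2 h than at 1 h there, beside 38 of the 120. Over all tested genes that share was 2.63%. The median level of the 16 at 2 h was 94.2% of the 1 h level in wt and 93.2% in the clr4D-labelled strain. From 2 h to 10 h 15 of the 16 were called lower in wt and all 16 in the clr4D-labelled strain. Of all tested genes 13.7% and 15.8% were called lower. The median of the 16 at 10 h was 26.0% and 19.3% of the 1 h level. The wt gene without a call was gut2, for the mitochondrial glycerol-3-phosphate dehydrogenase, at 75.3 and 64.9 CPM at 2 h and 36.5 and 48.6 at 10 h (adjusted p = 0.0593).

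The gene gpd1, whose enzyme makes the precursor of glycerol, went from 959 ± 69.3 CPM at 0 h to 4368 ± 362 at 1 h, 3484 ± 239 at 2 h and 983 ± 131 at 10 h in wt. Its clr4D-labelled means were 1064 ± 164, 5353 ± 722, 4105 ± 866 and 872 ± 8.27, and the changes from 2 h to 10 h were -1.82 ± 0.27 (adjusted p = 1.83e-05) in wt and -2.23 ± 0.27 (adjusted p = 7.16e-07) there. The catalase gene ctt1, whose enzyme removes hydrogen peroxide, had wt libraries of 123 and 108 CPM at 0 h, 1766 and 1569.5 at 1 h, 1496 and 1448 at 2 h, 364 and 427 at 10 h and 171 and 183 at 24 h. Its clr4D-labelled libraries held 108 and 113, 2042 and 1703, 1368 and 1939.8, 299 and 349, and 211 and 203 CPM. The libraries of the strains overlap at 0, 1 and 2 h, and the 10 h libraries lie below the 2 h libraries in both. The gene ish1, for a nuclear envelope protein induced by stress, went from 1839 ± 145 CPM at 1 h to 396 ± 26.1 at 10 h in wt and from 2311 ± 485 to 390.4 ± 34.6 in the clr4D-labelled strain.

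Trehalose, a sugar that protects proteins and membranes, has genes for both making and splitting it in the set. The synthase gene tps1 went from 330 ± 25.7 to 1364 ± 63.9 CPM in the first hour in wt, stood at 1688 ± 81.7 at 2 h and 510.5 ± 26.5 at 10 h. The trehalase gene ntp1 had 177 ± 19.9, 1517 ± 36.2, 1755 ± 114 and 693 ± 5.61. Both fell from 2 h to 10 h in the clr4D-labelled strain too, with log2 changes of -1.27 ± 0.18 and -1.72 ± 0.19. In the reference annotation ntp1 stands beside wwm2 and wwm3, which are also members. Such runs of neighbouring members numbered 6 and held 14 of the 119 members that the annotation places among 5124 coding genes. The 119 placed members are 2.322% of those coding genes. Whether the runs exceed what scattered genes would give was not tested.

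Several genes fell much further after 2 h. The gene SPAPB1A11.03, annotated as an L-lactate dehydrogenase, had the lowest ratio of all 120, with wt libraries of 2.71 and 7.2 CPM at 0 h, 947 and 826 at 1 h, 671 and 586 at 2 h, 22.4 and 15.5 at 10 h and 5.69 and 5.32 at 24 h. The clr4D-labelled libraries held 4.87 and 0, 826 and 533, 528 and 1123, 13.9 and 15.7, and 15.5 and 8.76 CPM, where the value of 0 allows up to 4.7 CPM (3 reads) and covers counting error only. From 2 h to 10 h the change was -4.96 ± 0.54 (adjusted p = 1.62e-05) in wt and -5.81 ± 0.57 (adjusted p = 2.83e-06) in the clr4D-labelled strain. Next in the order of ratios came SPAC4H3.08, annotated as a 3-hydroxyacyl-CoA dehydrogenase, which changed by -5.10 ± 0.53 and -5.72 ± 0.52. The uncharacterised gene SPAPJ695.02 changed by -4.74 ± 0.34 and -3.95 ± 0.34. In wt SPACUNK4.17, annotated as a dehydrogenase, went from 250.3 ± 9.17 at 2 h to 34.2 ± 0.1 at 10 h. The adducin gene SPBC1289.14 was low throughout and fell mostly before 2 h, from 32.4 ± 9.72 CPM at 1 h to 8.19 ± 1.52 in wt. In the clr4D-labelled strain it was called lower from 1 h to 2 h (-1.78) and from 2 h to 10 h (-2.11). Both calls were lost with DESeq2, with library totals and on leaving out any 1 of the compared libraries.

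The calcium-transporting ATPase gene cta3 changed by -4.32 ± 0.49 from 2 h to 10 h in wt and -2.77 ± 0.43 in the clr4D-labelled strain, a difference between strains of 1.55 ± 0.63 that was not called (adjusted p = 0.186). The stress genes rds1, ddr48 and lsd90, whose exact functions are not described in the annotation, changed by -3.62 ± 0.60, -3.17 ± 0.47 and -2.64 ± 0.43 in wt and by -4.19 ± 0.61, -4.08 ± 0.49 and -3.40 ± 0.44 in the clr4D-labelled strain. The Con-6 family gene SPAC11D3.01c peaked at 2 h or 4 h, with wt libraries of 2460.2 and 2469 CPM at 1 h, 3528 and 2704 at 2 h, 3061 and 3312 at 4 h and 169 and 151 at 10 h. Its change from 2 h to 10 h in the clr4D-labelled strain, -5.92 ± 0.45, was the deepest of the 120 there.

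The core environmental stress response gives the wider view, from a list written with earlier results of these data known. Of its 29 tested genes, 25 were called higher at 1 h in the clr4D-labelled strain, against 26.4% of all tested genes. At 24 h 22 were called lower than at 1 h and 1 higher, against 22.9% and 18.1%. Between 2 h and 10 h 21 were called lower in wt and 19 in the clr4D-labelled strain, against 13.7% and 15.8%. The median level at 10 h was 45.7% of the 1 h level in wt and 35.0% in the clr4D-labelled strain. Members of the set were 10 of these genes, with medians of 24.3% and 19.3%.

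Of the 30 tested genes on a list for nitrogen scavenging, 18 were called higher and 6 lower at 1 h in the clr4D-labelled strain, against 26.4% and 25.8% of all tested genes, and 2, fnx1 and uro1, belong to the set. The list's median level at 10 h was 73.4% of the 1 h level in wt and 48.9% in the clr4D-labelled strain. From 2 h to 10 h 6 of the 30 were called lower and 7 higher in wt, beside 13.7% and 13.4% of all genes. In the clr4D-labelled strain 14 were called lower and 2 higher, beside 15.8% and 13.5%. Tested directly, the change differed between the strains for 4 of the 30, lower in the clr4D-labelled strain, beside 1.92%. The change was called higher there for 0, beside 3.48%. At 10 h 17 of the 30 were called lower in the clr4D-labelled strain than in wt and 0 higher, beside 12% of all tested genes in each direction. Of 33 autophagy genes 30 were called higher at 1 h in the clr4D-labelled strain, against the same 26.4%, 0 belong to the set, and their median at 10 h was 77.8% of the 1 h level in wt and 84.6% in the clr4D-labelled strain. None of the 22 tested heat shock and chaperone genes belongs to the set either; 16 were called lower and 3 higher at 1 h, against 25.8% and 26.4%.

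Histone and cell separation genes formed a smaller group of 5. All 5 were called higher at 1 h in the clr4D-labelled strain, as were all 120 genes and 26.4% of all tested genes. The median log2 change of the 5 was 1.62. In that strain 4 were called lower at 2 h than at 1 h, against 2.63% of all tested genes. All 5 were called lower at 10 h than at 2 h in both strains, against 9.29% of all tested genes. The histone H2B gene htb1 had wt libraries of 967 and 997 CPM at 0 h, 4222 and 3236 at 1 h, 2603 and 2347 at 2 h, 912 and 932 at 4 h, and 735 and 662 at 10 h. Its clr4D-labelled libraries held 990.2 and 1077, 2763 and 2865, 1638 and 1654, 829.9 and 851, and 647 and 503 CPM, so that from 4 h on both strains lay below their 0 h levels. The call from 1 h to 2 h (-0.77 ± 0.19, adjusted p = 0.0159) was lost without clr4D 1 h replicate 1 or 2 or clr4D 2 h replicate 1 or 2 (-0.78 to -0.74).

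The genes adg3, for a beta-glucosidase, and cfh4, for a regulator of chitin synthase, are on the list for septation and cell separation, and stood at 1785 ± 108 and 1289 ± 11 CPM at 1 h in wt and at 837 ± 0.67 and 685 ± 9.14 at 2 h. Both were called lower from 1 h to 2 h in the clr4D-labelled strain, with log2 changes of -1.57 ± 0.26 and -1.16 ± 0.28. For cfh4 the call was lost without clr4D 1 h replicate 1 (-1.25), clr4D 1 h replicate 2 (-1.03) or clr4D 2 h replicate 2 (-0.66) and with library totals (-1.0), and for both with the compared libraries fitted alone. The histone H4 genes hhf1 and hhf3 encode near-identical copies, so reads may be divided between them or left uncounted, and their values are uncertain. Of 19 tested genes for septation and cell separation, 14 were called higher at 1 h in the clr4D-labelled strain, against 26.4% of all tested genes.

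The set also holds a few kinase genes, described here after their values were seen. The MAPK-activated kinase gene srk1, whose product acts with Sty1, went from 84.7 ± 7.49 to 632 ± 34.8 CPM in the first hour in wt, stood at 634 ± 54.4 at 2 h and 183 ± 7.75 at 10 h. The gene pka1, for the catalytic subunit of the cAMP-dependent kinase that signals glucose, went from 125 ± 5.54 to 513 ± 69.6, 523 ± 22.9 and 254 ± 14. Both were called lower from 2 h to 10 h in both strains, with log2 changes of -1.79 ± 0.20 and -1.05 ± 0.20 in wt. The gene hri1, whose kinase slows translation through eIF2 alpha, stood at 505 ± 3.13 CPM at 1 h and 310.5 ± 54.7 at 2 h in wt, and fell from 574 ± 6.82 to 368 ± 59 in the clr4D-labelled strain (-0.65 ± 0.16, adjusted p = 0.0195). Of 34 tested genes of nitrogen and TOR signalling 18 were called higher at 1 h in that strain, against 26.4% of all tested genes, and 1, pka1, belongs to the set. From 2 h to 10 h 6 of the 34 were called lower in wt and 8 in the clr4D-labelled strain, against 13.7% and 15.8%.

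Of the 9 members for the plasma membrane and transport, 3 were called lower at 2 h than at 1 h in the clr4D-labelled strain. Of the 120 genes 31.7% were called so there, and 2.63% of all tested genes. From 2 h to 10 h 8 of the 9 were called lower in each strain. The shares were 82.5% of the 120 and 13.7% of all tested genes in wt, and 83.3% and 15.8% in the clr4D-labelled strain. The eisosome genes fhn1 and eis1, whose products shape folds of the plasma membrane, stood in wt at 1175 ± 63.8 and 1977 ± 233 CPM at 1 h, 1720.1 ± 151 and 1979 ± 202 at 2 h, 1781 ± 677 and 1953 ± 781 at 4 h, and 361 ± 5.71 and 643 ± 7.12 at 10 h. The tricalbin gene tcb2, whose product tethers membranes, stood at 972 ± 119.7, 1161 ± 108, 833 ± 9.23 and 489 ± 15. All 3 were called lower from 2 h to 10 h in both strains. The transporter gene SPAC1399.01c belonged to the early genes instead, with 1533 ± 34.1 CPM at 1 h and 432 ± 27 at 2 h in wt.

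From 2 h to 10 h, the change in the clr4D-labelled strain minus that in wt was called for 6 of the 120 genes, or 5%, where 5.4% of all tested genes were called, so the share among these genes was near the background. The median difference was -0.25, beside -0.03 over all genes. Of the 6, ght3 and sut1 had the higher change in the clr4D-labelled strain, against 3.48% of all tested genes, and 4 the lower one, against 1.92%. The call of ght3 held without any 1 of the 8 libraries. Each of the other 5 was lost without several of them. Leaving out wt 10 h replicate 1 left 1 call, and 2 were left on leaving out wt 2 h replicate 1, wt 2 h replicate 2, wt 10 h replicate 2 or clr4D 10 h replicate 1.

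The gene ght3, for a gluconate:proton symporter of the hexose transporter family, had wt libraries of 9.02 and 8.4 CPM at 0 h, 42.4 and 44.7 at 1 h, 35.9 and 43.5 at 2 h, 22.1 and 18.1 at 4 h, 8.23 and 9.94 at 10 h and 5.31 and 8.98 at 24 h. The clr4D-labelled libraries held 10.4 and 8.72, 56.5 and 56.4, 44.4 and 50.3, 65.8 and 53.5, 204 and 144, and 99.3 and 99.9 CPM. The clr4D-labelled libraries lay somewhat above those of wt at 1 h and 2 h, and far above them from 4 h on. From 2 h to 10 h ght3 fell in wt (-2.19 ± 0.26, adjusted p = 1.51e-06) and rose in the clr4D-labelled strain (1.87 ± 0.18, adjusted p = 2.56e-08), a difference of 4.06 ± 0.32 (adjusted p = 1.13e-08). Of the 21 tested genes on a list of glucose-repressed and gluconeogenic genes, 4 were called higher and 1 lower in this difference. Of all tested genes 3.48% and 1.92% were called so. The gene ght3 is the list's 1 member of the set.

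The sucrose and maltose transporter gene sut1 fell from 368 ± 44.3 at 2 h to 92.2 ± 2.38 CPM at 10 h in wt and from 341 ± 39.9 to 148 ± 15 in the clr4D-labelled strain, a difference of 0.79 ± 0.21 (adjusted p = 0.0255). Its call was lost without wt 2 h replicate 1, either wt 10 h replicate, clr4D 2 h replicate 1 or clr4D 10 h replicate 1 (0.67 to 0.81). It was also lost with DESeq2 (0.82) and with library totals (0.9). The aldo/keto reductase gene SPBC215.11c fell from 463 ± 67.3 to 167 ± 20.8 and from 559.9 ± 31.1 to 87.3 ± 25.6 (-1.21 ± 0.31, adjusted p = 0.0255). That call was lost without wt 2 h replicate 2, wt 10 h replicate 1, either clr4D 2 h replicate or clr4D 10 h replicate 2 (-1.27 to -0.96). For urh1, described above, the difference was -1.08 ± 0.26 (adjusted p = 0.0161), lost without either wt 2 h replicate, either wt 10 h replicate or the first clr4D replicate of 2 h or 10 h (-1.14 to -0.86).

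The remaining calls were those of a channel gene and a gene of unknown function. The potassium channel subunit gene osr2 fell from 1026 ± 49.1 to 483 ± 9.76 CPM in wt and from 1056 ± 53.1 to 266 ± 29.5 in the clr4D-labelled strain (-0.91 ± 0.26, adjusted p = 0.0378). The call was lost on leaving out any of the 8 libraries except clr4D 10 h replicate 2 (-0.96 to -0.79), and with library totals (-0.8). The uncharacterised gene SPAC15E1.02c fell from 302 ± 31 to 96.2 ± 11 and from 363 ± 92.6 to 45 ± 0.22 (-1.39 ± 0.38, adjusted p = 0.0388), and its call was lost on leaving out any of the 8 except clr4D 2 h replicate 1 (-1.5 to -1.1).

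**Figure D3:**
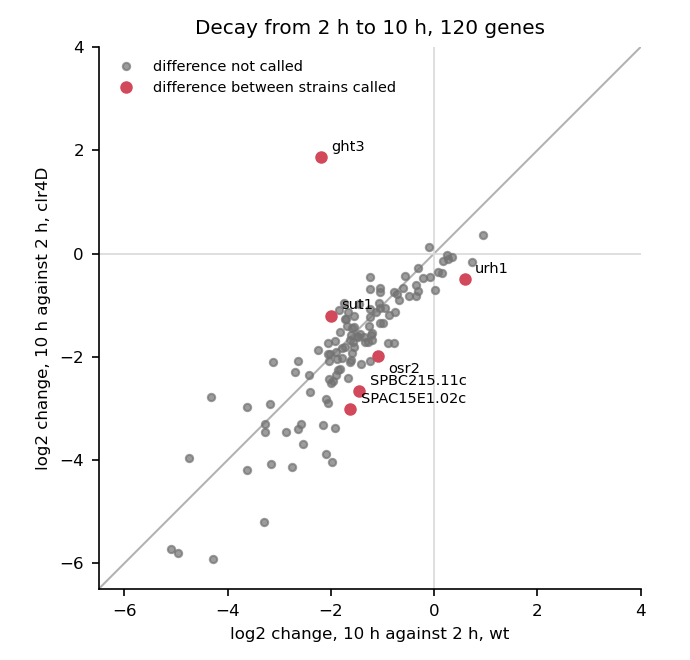
Log2 change from 2 h to 10 h in wt (x axis) and in the clr4D-labelled strain (y axis) for the 120 genes; the diagonal marks equal change, and red points are the 6 genes whose difference between the strains was called. Most genes lie below 0 on both axes, with r = 0.83, and ght3 stands apart at -2.19 in wt and 1.87 in the clr4D-labelled strain.

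Levels of the strains were close at 2 h and parted at 4 h. At 2 h 3 of the 120 genes were called, against 1.55% of all tested genes, with a median log2 difference of 0.08. Higher in the clr4D-labelled strain were ppk31 and egt1, against 1.32% of all tested genes, and hhf1 was lower, against 0.23%. The kinase gene ppk31 stood at 197 and 350.3 CPM in the clr4D-labelled libraries against 115 and 61.3 in wt (1.69 ± 0.38, adjusted p = 0.0421). It was no longer called once wt 2 h replicate 2 (1.27) or clr4D 2 h replicate 2 (1.2) was left out. Library totals, no filter and the compared libraries fitted alone also ended the call. The gene egt1, whose enzyme makes the antioxidant ergothioneine, stood at 529.9 and 483 against 329 and 275 (0.75 ± 0.18, adjusted p = 0.0268). That call was lost without wt 2 h replicate 1 or 2 or clr4D 2 h replicate 1 or 2 (0.62 to 0.88). The histone gene hhf1 stood at 418 and 379 against 971 and 989 (-1.30 ± 0.17, adjusted p = 2.18e-05), and the call held without each library in turn. Its values remain uncertain, as reads may be divided with the near-identical copy hhf3 or left uncounted.

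At 4 h 36 of the 120 genes were called, against 15% of all tested genes. Of these, 34 were lower in the clr4D-labelled strain, against 9.82% of all tested genes, and 2 were higher, ght3 and egt1, against 5.19%. The median log2 difference was -0.49, beside -0.03 over all genes, and for 77 genes both clr4D-labelled libraries lay below both wt libraries, as they did for 27.3% of all tested genes. Purine genes gave 5 of their 8 to the 34, pyrimidine salvage 4 of 7, and stress protection 5 of 16. The uricase gene uro1 stood at 276 and 185 CPM in the clr4D-labelled libraries and 414 and 862 in wt (-1.44 ± 0.27, adjusted p = 0.000725). The nucleoside hydrolase gene SPBC800.11 stood at 271 and 152 against 575 and 856 (-1.74 ± 0.28, adjusted p = 0.000344). The stress gene rds1 stood at 256 and 424 against 639 and 1941 (-1.89 ± 0.55, adjusted p = 0.0338), and was not called once the second wt library (-0.9) or the first or second clr4D-labelled library (-1.58 and -2.3) of 4 h was left out.

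The count at 4 h rested on few libraries. Set against counting error at their own depths, the 2 wt libraries of 4 h differed by a chi-square of 20.19 per gene. The pairs of the other groups gave 2.19 to 5.89. Of the second wt library's reads 10.79% aligned to more than 1 place, beside 6.11% in the first. That second library held 637723 gene reads, the fewest of all, beside 4427020 in the first. Without it 11 genes were called, 9 of them lower, with a median of -0.40, and the difference for uro1 was -0.84, still called. Leaving out clr4D 4 h replicate 1 also gave 11, leaving out clr4D 4 h replicate 2 gave 38 and leaving out wt 4 h replicate 1 gave 48. With the 4 libraries of this time fitted alone 1 gene was called. Scaling by library totals in place of TMM moved the median of all genes by 0.291 and gave 9 calls, 2 higher and 7 lower, with a median of -0.15 for these genes beside 0.259 for all genes.

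At 10 h 30 of the 120 genes were called, or 25%, against 23.9% of all tested genes, so the share was near the background. They divided into 8 higher, including ght3, cta3, ppk31 and egt1, and 22 lower, against 12% of all tested genes in each direction. Scaling by library totals moved this split to 12 higher and 15 lower. The gene ght3 had the largest difference, 4.32 ± 0.23 (adjusted p = 5.08e-13). The ATPase gene cta3 stood at 220.3 and 102 CPM in the clr4D-labelled libraries and 33.3 and 37.6 in wt (2.22 ± 0.49, adjusted p = 0.00363), not called once wt 10 h replicate 1 (2.11) or clr4D 10 h replicate 1 (1.55) was left out. For ppk31, at 66.9 and 39.4 against 18.4 and 9.94 (1.77 ± 0.59, adjusted p = 0.0421), the call ended when the first or second wt library (2.44 and 1.56) or the first clr4D-labelled library (1.31) of 10 h was left out, and with no filter. The gene egt1 stood at 436 and 297 against 123 and 133 (1.54 ± 0.19, adjusted p = 1.47e-06), and its call held without each library in turn.

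Among the 22 lower genes, urh1 stood at 112 and 153 CPM in the clr4D-labelled libraries and 291 and 308 in wt (-1.18 ± 0.19, adjusted p = 4.61e-05). The Con-6 family gene SPAC11D3.01c stood at 49.6 and 70.0 against 169 and 151 (-1.44 ± 0.41, adjusted p = 0.015), and the enolase gene eno102 at 16.2 and 25.2 against 54.1 and 54.2 (-1.43 ± 0.40, adjusted p = 0.0158). Calls of the last pair were lost when wt 10 h replicate 1 (-1.35 and -1.43) or clr4D 10 h replicate 1 (-1.19 and -1.1) was left out. That of SPAC11D3.01c was also lost with library totals (-1.33). Over all 120, leaving out wt 10 h replicate 1 gave 10 calls, while clr4D 10 h replicate 1 gave 11, wt 10 h replicate 2 gave 21 and clr4D 10 h replicate 2 gave 20. At both 4 h and 10 h, 2 genes were called higher and 15 lower in the clr4D-labelled strain, against 4.25% and 5.53% of all tested genes.

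**Figure D4:**
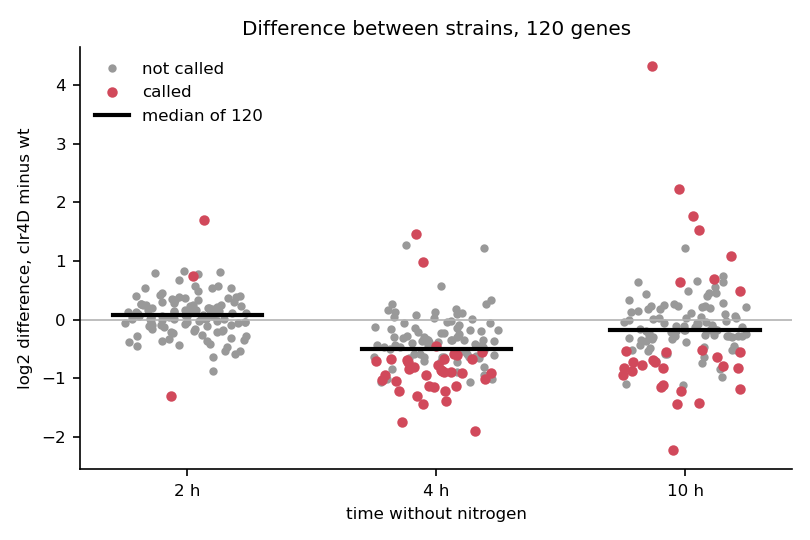
Log2 difference between the clr4D-labelled strain and wt at 2, 4 and 10 h for the 120 genes; red points were called, grey points were not, points are spread sideways at random, and black bars are the medians of 0.08, -0.49 and -0.18. Called genes lie mainly below 0 at 4 h, and the highest point at 10 h is ght3 at 4.32.

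Markers of other cell states moved with the strain at the times of these comparisons. All 6 M-cell markers carried reads in both strains, and their sum ran from 184 to 230 CPM in wt and from 2575 to 2637 in the clr4D-labelled strain at 2 h, and from 185 to 199.8 against 8142 to 8563 at 4 h. The 3 P-cell markers summed to 716 to 946 CPM in wt and 3232 to 4844 in the clr4D-labelled strain at 4 h, and to 769 to 809 against 6547 to 7043 at 10 h. The 5 meiotic markers summed to 71.7 to 76.8 CPM against 207 to 249.5 at 4 h and to 80.8 to 95.0 against 505 to 613 at 10 h, where mei3 had 0 reads in wt. The 5 spore markers summed to 166 to 217 CPM against 246 to 299.8 at 4 h, and stood apart at 10 h as given above. Their part in the results was not tested.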

How the data were processed

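Per the labels' protocols, RNA from hot phenol extraction was treated with DNase, rid of ribosomal RNA and sequenced from directional libraries. TopHat2 2.0.8, HTSeq 0.6.1 and the build ASM294v2 are named in the submitters' processing notes, and the deposited values are raw read counts per feature. Which annotation release and strand setting the counting used is not stated in the labels or files used here, so overlapping genes on opposite strands are uncertain. Reads aligned to more than 1 place (5.43% to 12.37% of a library) and other reads without a gene stayed out of all sums. Summing transcripts of a gene turned 6878 features into 6877 genes. Names and products came from a RefSeq annotation of another build, ASM294v3, matched by identifier for 6705 genes and 119 of the 120. Its positions were used only for the order of coding genes, which gave the runs of neighbours. For 13 of the 120 the product is listed as uncharacterised or not at all.

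Counts were fitted in edgeR 4.0.16 (R 4.3.3) with 12 group means over all 24 libraries, filterByExpr, TMM factors of 0.695 to 1.263, robust quasi-likelihood dispersions (common biological coefficient of variation 0.122) and Benjamini-Hochberg adjustment over 5664 genes. The SE is the size of the log2 value over the square root of F. Alternatives were DESeq2 1.42.0, library totals, no filter, the compared groups alone, a replicate block and each library left out. Precision is limited by 2 replicates and, for low genes, by depth.

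The 120 genes and all lists were chosen with earlier results of these data known, and the groups of members were made by hand after seeing values. By rule the text names the 10 lowest 24 h to 1 h ratios, the 10 highest CPM at 1 h, 3 genes on each side of the threshold, the 8 largest falls from 1 h to 24 h in the clr4D-labelled strain, up to 6 called differences between the strains of the change from 2 h to 10 h in each direction, 3 at each time, and up to 4 genes a list; other genes named were chosen after their values were seen. Promoter sequences were not used here.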

Additional observations from a re-analysis of the deposited data

Results flagged for a closer look

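For 6 of the 120 genes the change from 2 h to 10 h differed between the strains by the test of that difference itself (edgeR, adjusted over all tested genes). Positive values mean a smaller fall, or a rise, in the clr4D-labelled strain. The log2 difference was 4.06 for ght3, which fell in wt and rose in the clr4D-labelled strain, and 0.79 for sut1. It was -1.39 for SPAC15E1.02c, -1.21 for SPBC215.11c, -1.08 for urh1 and -0.91 for osr2. These 6 are 5% of the set, beside 5.4% of all tested genes, and the call of ght3 was the 1 that held without each of the 8 libraries in turn.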

How the results depend on the processing

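The counts of genes called in the clr4D-labelled strain from 0 h to 1 h (120), 1 h to 2 h (38) and 1 h to 24 h (119), and from 2 h to 10 h in wt (99) and in the clr4D-labelled strain (100), stayed within 1.5 times under DESeq2, library totals, no filter, the compared groups alone and each library left out. Leaving out 1 library gave 114 to 120, 30 to 33, 116 to 118, 90 to 98 and 94 to 99. Comparisons between the strains were less stable. With the compared groups alone the counts were 14 for the difference of the change from 2 h to 10 h (6 in the main fit), 6 at 2 h (3), 1 at 4 h (36) and 46 at 10 h (30). Library totals gave 9 at 4 h, and leaving out the second wt libraries of 4 h and 0 h together gave 10. Leaving out 1 library gave 1 to 6, 1 to 4, 11 to 48 and 10 to 21, and the cause of these moves was not tested. Library totals moved the median of all genes by 0.458 for 1 h to 24 h in the clr4D-labelled strain. Of 205 results for single genes, run under 1887 alternatives, 0 reversed and 206 alternatives ended a call, 131 of them by leaving out 1 library. With TMM scaling in the choice of genes, 117 of the 120 were kept.

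Over 66 pairs of groups the correlation of deviations of same-numbered replicates ran from -0.077 to 0.333, with a median of 0.078, and was over 0.1 for 23 pairs, so the numbers were not taken to pair the libraries. With the replicate number as a block the counts were 120, 38, 119, 100, 102, 7, 4, 37 and 32 in the order above.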
